A study of Mus musculus with 4 samples.

Results

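The regions described here are the stretches of DNA that had a peak in both stimulated libraries and in neither unstimulated library. Peaks of the 4 deposited lists were merged wherever they overlapped by at least 1 bp, and the members were chosen by the peak calls of all 4 libraries, so by the measured signal itself. This gave 896 regions of 15237 in all (5.88%) on chromosomes 1 to 19 and X of the mouse genome mm10. The assay was ATAC-seq, in which the transposase Tn5 cuts accessible DNA. The cells were CD8+ lymphocytes from Balb/c mice, which the series title calls tumour-infiltrating. The groups were cells stimulated with PMA and ionomycin for 2 h and treated with phenelzine, stimulated cells without phenelzine, unstimulated cells with phenelzine, and unstimulated untreated cells, with 1 library each. Phenelzine inhibits monoamine oxidases and the histone demethylase LSD1. The sources used here give neither its dose and timing nor the number of animals.

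PMA imitates diacylglycerol and switches on protein kinase C and the Ras pathway, while ionomycin lets calcium into the cell and so activates calcineurin and the NFAT factors. Together they bypass the antigen receptor and induce AP-1, NF-kB and NFAT activity within hours. In T cells such factors open enhancers and promoters of activation genes, and the Nr4a orphan nuclear receptors are among the genes induced first.

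The lists held 9322 peaks for stimulated phenelzine, 10405 for stimulated untreated, 7929 for unstimulated phenelzine and 6519 for unstimulated untreated cells. Read depth per library is unknown, so a region missing from a list may lie just under the peak caller's threshold there. Because the cells were assayed in bulk, fewer cells with an open site and less opening per cell cannot be told apart. Conditions were not tested against each other, for want of replicates, and exact 95% intervals on shares cover counting error only. Of 15 genes of CD8 and T cell receptor identity, 9 had a region of any kind within 20 kb of the body, as did 58.1% of all protein-coding genes, so the count is at background. Among the identity genes Cd8a, Cd8b1, Zap70, Lcp2 and Cd2 had none.

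DNA under these regions can be read where they overlap the promoter windows that RefSeq gives for build GRCm38.p6, from 250 bases before to 50 bases after a start site. Such a window of a protein-coding gene was touched by 295 of 867 regions (34.0%, 95% interval 30.9 to 37.3), counting the chromosomes whose windows were used here. The stretches printed are the overlap of region and window on the gene's own strand, 5′ to 3′, with the letters of any searched motif in capitals. The first set comes from genes of the pathways that PMA and ionomycin switch on. They are Nr4a3 at chr4:48045055-48045129 on the plus strand, Nr4a2 at chr2:57124116-57124253, Prkca at chr11:108343883-108344003 and Prkcd at chr14:30626185-30626355 on the minus strand, and Ppp3r1 at chr11:17159155-17159343 on the plus strand.
Nr4a3: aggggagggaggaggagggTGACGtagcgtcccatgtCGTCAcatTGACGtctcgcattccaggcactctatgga
Nr4a2: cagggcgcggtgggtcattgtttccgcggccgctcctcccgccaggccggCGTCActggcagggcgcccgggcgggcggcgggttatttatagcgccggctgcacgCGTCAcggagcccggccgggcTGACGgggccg
Prkca: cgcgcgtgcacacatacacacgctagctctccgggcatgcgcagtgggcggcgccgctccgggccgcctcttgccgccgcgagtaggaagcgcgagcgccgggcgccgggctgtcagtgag
Prkcd: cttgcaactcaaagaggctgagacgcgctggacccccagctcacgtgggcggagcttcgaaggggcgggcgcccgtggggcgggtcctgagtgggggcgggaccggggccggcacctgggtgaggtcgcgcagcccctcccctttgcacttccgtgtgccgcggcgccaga
Ppp3r1: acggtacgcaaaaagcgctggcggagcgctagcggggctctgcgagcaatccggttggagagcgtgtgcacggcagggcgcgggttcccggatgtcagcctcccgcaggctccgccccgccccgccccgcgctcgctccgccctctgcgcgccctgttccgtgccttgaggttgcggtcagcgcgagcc

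Both orphan receptor stretches hold 3 copies each of the pentamer TGACG, read on either strand, which is the core of the cyclic AMP response element (CRE). None of the 11 motifs searched by plan was found in these 5 stretches. Dgkz, a gene of the same pathways, also had a member over a promoter window. Its stretch is not printed here and held the CTCF motif AGGGGGCG, which was among those searched. The Prkca, Prkcd and Ppp3r1 stretches have a GC content of 74.4%, 73.1% and 73.0%, that of Nr4a2 76.8% and that of Nr4a3 58.7%. Searching for TGACG was a choice made after these sequences were seen. At least 3 copies were in 11 of the 340 promoter windows touched by the regions (3.24%, 1.63 to 5.72), in 4.18% (3.53 to 4.89) of 3473 windows touched by regions of all 4 lists, and in 1.39% (1.23 to 1.55) of all 21045 windows of protein-coding genes.

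The second set shows promoters among the regions that were strongest in both stimulated lists. They are C1d at chr11:17257540-17257653 and Slc39a1 at chr3:90247992-90248157 on the plus strand, and Lsm5 at chr6:56704685-56704788 and Uxt at chrX:20961982-20962091 on the minus strand.
C1d: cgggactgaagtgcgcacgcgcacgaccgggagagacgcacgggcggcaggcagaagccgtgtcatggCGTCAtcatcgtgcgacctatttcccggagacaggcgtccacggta
Slc39a1: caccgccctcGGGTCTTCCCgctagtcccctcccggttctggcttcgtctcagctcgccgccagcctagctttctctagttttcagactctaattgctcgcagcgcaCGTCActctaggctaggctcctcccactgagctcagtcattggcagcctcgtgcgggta
Lsm5: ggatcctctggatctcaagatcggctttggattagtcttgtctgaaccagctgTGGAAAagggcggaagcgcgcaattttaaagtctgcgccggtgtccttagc
Uxt: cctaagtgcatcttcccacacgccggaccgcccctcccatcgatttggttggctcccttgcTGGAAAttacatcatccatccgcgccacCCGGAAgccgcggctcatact

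The capitals mark TGACG, on either strand, in C1d and Slc39a1, the NF-kB motif in Slc39a1, the NFAT motif TGGAAA in Lsm5 and Uxt, and the Ets motif CCGGAA in Uxt. The third set was picked after its motifs were seen, to show AP-1 in Bag3 and Zfp36l1 (TGANTCA) and a promoter with both an NRF1 and a YY1 motif (AAGATGGC), that of Phc3. Bag3 lies at chr7:128523487-128523632 on the plus strand, Zfp36l1 at chr12:80113069-80113263 and Phc3 at chr3:30969366-30969462 on the minus strand.
Bag3: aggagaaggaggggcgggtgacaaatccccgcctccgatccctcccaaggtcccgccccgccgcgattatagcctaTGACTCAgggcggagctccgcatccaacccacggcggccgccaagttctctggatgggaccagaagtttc
Zfp36l1: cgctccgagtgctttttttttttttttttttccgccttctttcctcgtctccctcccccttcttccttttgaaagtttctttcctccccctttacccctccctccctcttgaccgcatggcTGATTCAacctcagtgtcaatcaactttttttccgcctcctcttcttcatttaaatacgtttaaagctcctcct
Phc3: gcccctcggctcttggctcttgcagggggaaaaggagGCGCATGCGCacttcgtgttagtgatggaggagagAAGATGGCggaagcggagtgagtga

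The regions were of modest strength. Fold enrichment, the authors' ratio of a peak's pileup to local background, ranged from 2.14 to 9.04 with a median of 4.45 in the stimulated phenelzine list, and from 2.21 to 8.07 with a median of 4.53 in the stimulated untreated list. Their −log10 q ranged from 1.01 to 20.5 (median 2.12) with phenelzine and from 1.02 to 9.48 (median 2.36) without. The median rank was above 33.8% of all peaks in the stimulated phenelzine list and above 35.8% in the stimulated untreated list. Both peaks lay in the upper part of their lists for 109 regions and both in the lower part for 455, with the list's own median as the dividing line. These values chose the members through the caller's threshold and are a description.

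Strengths in both stimulated lists were weakly related. Across the 896 regions Spearman's rho of −log10 q between both lists was 0.21, against 0.55 across the 4085 regions of all 4 lists. The points share the same pair of libraries, and rho is a description. The rule also chose members through these values. Their medians were 2.12 with phenelzine and 2.36 without, against 3.94 and 4.78 for regions of all 4 lists. How far this selection affected rho was not tested. The peaks of both lists overlapped by a median of 94.6% of the shorter peak, by its whole length in 377 regions, and by at least 50% in 798. Their centres lay a median of 29.2 bp apart and within 100 bp in 802 regions.

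**Figure D1:**
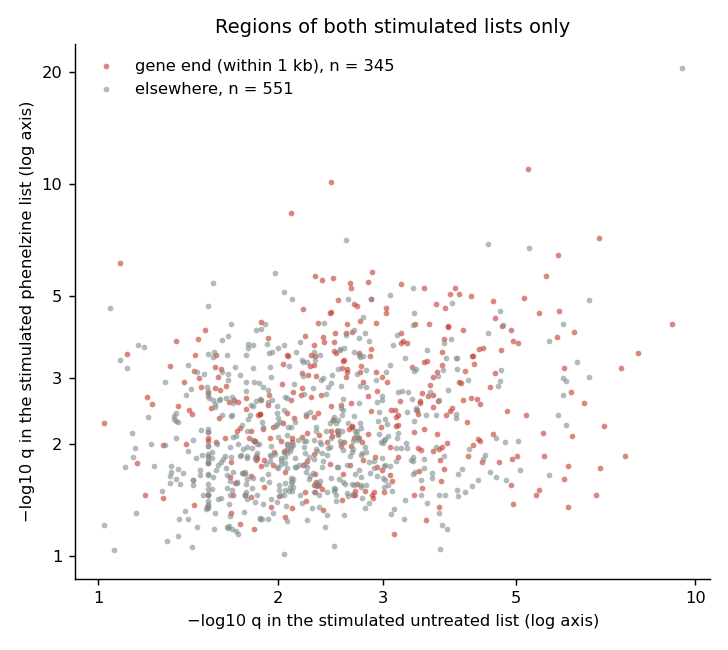
Each point is a region of both stimulated lists only, with −log10 q in the stimulated phenelzine list on the vertical axis and in the stimulated untreated list on the horizontal axis, both logarithmic. Regions at gene ends (345, red) and elsewhere (grey) both crowd between 1 and 5, and the point at the top right is the region at the start of chromosome 9 (20.5 and 9.48).

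At the edge of the rule, members had stimulated peaks and excluded regions had unstimulated peaks close to the caller's limit. The weakest members lay 76244 bp from Stx18 (−log10 q 1.01 in stimulated phenelzine and 2.05 in stimulated untreated cells), inside Rbms1 (1.21 and 1.02), at the gene end of Man2c1 (2.28 and 1.02), inside Abcc1 (1.04 and 1.06) and inside Sfi1 (1.04 and 3.74). Just outside were regions kept out by a weak unstimulated peak, all in the phenelzine list. These lay at Soat1 (−log10 q 1.01 in that list), Ccar2 (1.04), 63531 bp from Cebpb (1.06), in Mapkapk3 (1.06) and at Id3 (1.09). Both stimulated lists and a single unstimulated list shared 1510 regions, and in 491 of these the unstimulated peak had a −log10 q under 2. The nearest unstimulated peak lay a median of 32518 bp from a member. It was within 1 kb for 54 and within 100 bp for 7, the closest being 2 bp away at Fam102b, then 23 bp at Rnase10, 25 bp for a region whose nearest gene is Sec61g, 25 bp in Ppm1l and 30 bp for one whose nearest gene is Ccn5.

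Gene ends held 345 of the 896 regions (38.5%, 95% interval 35.3 to 41.8), taken as within 1 kb of the first or last base of a protein-coding gene. These touched 399 genes, which are 1.84% of all protein-coding genes. A further 261 (29.1%) lay inside genes, 115 (12.8%) outside genes but within 20 kb, and 175 (19.5%) farther away. Among the 448 regions with the higher weaker peak, 49.1% (44.4 to 53.8) lay at gene ends, against 27.9% (23.8 to 32.3) of the other 448. By start sites alone, 326 of 867 regions (37.6%, 34.4 to 40.9) lay within 1 kb of one. Over promoter windows the centres lay near the start site, with a median of −35 bp from it, 231 of 295 upstream and 236 within 100 bp. These 295 were chosen by touching a window that reaches 250 bp upstream of a start site and only 50 bp downstream. The window thus favours upstream centres by rule, and how far it set their majority was not tested. Windows of genes on both strands, as at divergent promoters, were touched by 19 regions.

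**Figure D2:**
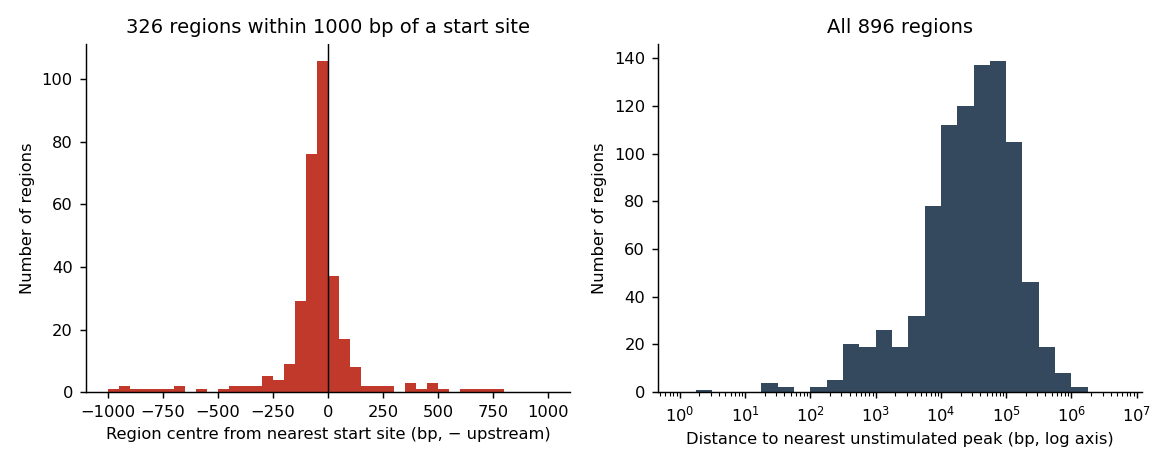
The left panel counts regions of both stimulated lists only by the distance of their centre from the nearest start site, in bins of 50 bp, for the 326 within 1000 bp. The right panel counts all 896 by the distance to the nearest unstimulated peak on a log axis, with most between 10000 and 100000 bp.

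The gene-end share was close to that of other regions held by a pair of lists. It was 40.9% (35.9 to 46.1) for the 374 regions of both phenelzine lists only and 41.8% (36.0 to 47.7) for the 285 of both untreated lists only. It was 40.1% (36.0 to 44.3) for the 556 regions shared by stimulated untreated and unstimulated phenelzine cells alone, and 34.1% (27.9 to 40.8) for the 220 shared by stimulated phenelzine and unstimulated untreated cells alone. These intervals overlap that of the stimulated pair. The 123 regions of both unstimulated lists only had 52.8% (43.6 to 61.9), above it. Regions of the stimulated phenelzine list alone had 20.4%, those of the stimulated untreated list alone 22.6%, and those of all 4 lists 77.1% (75.8 to 78.4). The median width was 169 bp in both stimulated lists only, 94 bp and 98 bp in the stimulated phenelzine and stimulated untreated lists alone, and 277 bp in all 4 lists. The other pairs were narrower than the stimulated pair, with 160 bp for both phenelzine lists only, 158 bp for both untreated lists only, 148 bp for both unstimulated lists only, and 162 bp and 148 bp for the mixed pairs in the order above. Among pairs, the widest did not have the highest gene-end share. Among regions wider than 100 bp and up to 150 bp the gene-end share was 47.9% (42.1 to 53.6) for both stimulated lists only and 75.1% (69.0 to 80.5) for all 4 lists. No test of these differences was made.

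**Figure D3:**
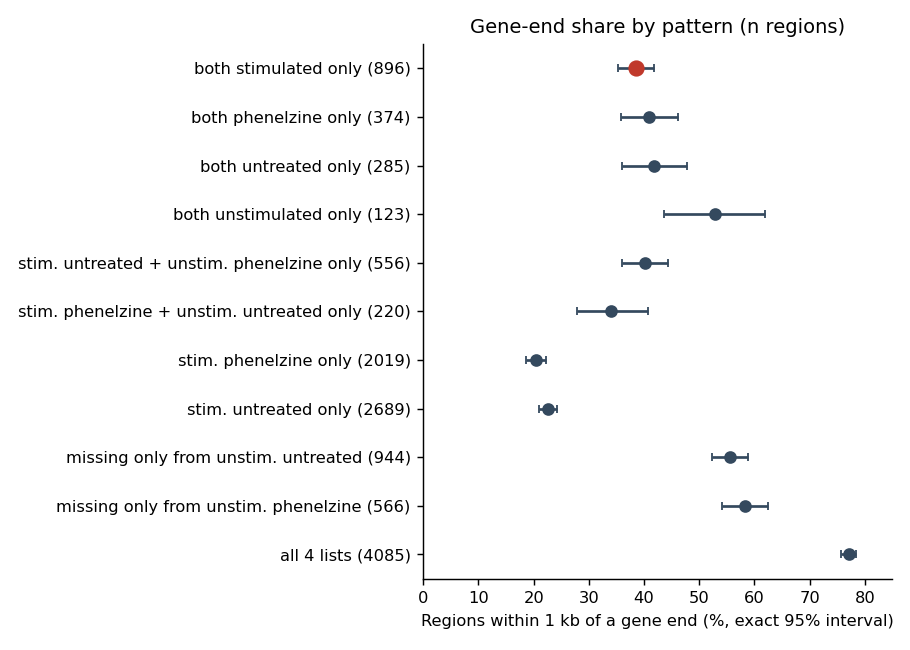
Points give the share of regions within 1 kb of a gene end in percent for each presence pattern, with exact 95% intervals and the number of regions in brackets. The red point, both stimulated lists only, is 38.5% and lies among the pairs other than both unstimulated lists only, above the single lists and below the regions of all 4 lists at 77.1%.

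Among the stimulation gains of each arm the set was a minority. It made up 24.2% (22.8 to 25.6) of the 3701 regions that the stimulated phenelzine list held and the unstimulated phenelzine list lacked, which are 24.3% of all regions. It made up 17.6% (16.6 to 18.7) of the 5085 such regions of the untreated arm, 33.4% of all regions. By rule every member is a gain in both arms. On single chromosomes the members were between 4.53% of all regions, on chromosome 17, and 7.73%, on chromosome 18.

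The genes of NF-kB, NFAT and protein kinase C signalling had 14 of the 22 loci found in the gene lists. Their lists hold 18, 17 and 17 of the 223 list genes. At 4 of the 14, Nfkbie, Traf2, Nfatc3 and Mapk3, a member lay over the promoter window of a neighbouring gene. Around the protein kinase C and Ras genes, whose products carry the PMA signal, 6 of 17 had a member within 20 kb of the body. With lists of equal size none of these 6 loci had a member. With −log10 q of at least 3 only Prkch had one, and through a different region. Its 2 members in the main setting had only 1.36 and 1.05 in the stimulated untreated list. In the main setting 1201 of all 21631 protein-coding genes had a member within 20 kb (5.55%). The median body of these 17 genes was 58.1 kb, against 17.3 kb for all protein-coding genes, and the counts were not adjusted for length. Prkcd, a diacylglycerol-sensitive kinase, had its member over the promoter, with −log10 q 1.59 in stimulated phenelzine and 3.75 in stimulated untreated cells. Its locus held 1 and 2 regions in these lists, against none in either unstimulated list. By rule a member adds to both stimulated counts and to neither unstimulated count. Prkca, the classical calcium-dependent kinase, had −log10 q 3.86 with phenelzine and 1.93 without at its promoter. That promoter had no unstimulated peak closer than 21378 bp. The Prkca locus held 1 region in each list but that of unstimulated phenelzine, which had none.

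The other kinase genes had their members deeper inside the gene or outside it. The member inside Prkce, a calcium-independent kinase gene, had −log10 q 1.46 with phenelzine and 1.76 without. Prkch, a kinase gene of the same kind, had one inside it (1.72 and 1.36) and one 12.5 kb outside it (4.64 and 1.05). Mapk3, which encodes an ERK kinase, had one 11.0 kb away, over the promoter window of Ypel3 (3.44 and 2.31). The member at Dgkz, whose kinase removes diacylglycerol, lay over an internal start site 12.8 kb into the gene (1.72 and 2.00). No member lay at the MEK kinase genes Map2k1 and Map2k2 or at Nras. Prkcq, Rasgrp1 and Rasgrp2, the kinase and exchange factors prominent in T cells, had no region of any kind.

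Of 17 calcium and NFAT genes 4 had a member (23.5%, against 5.55% of all protein-coding genes). The median body of the 17 was 107 kb, against 17.3 kb for all protein-coding genes. Ppp3r1, the regulatory subunit of calcineurin, carried it at the promoter with −log10 q 1.49 in stimulated phenelzine and 2.22 in stimulated untreated cells. Nfatc2, an NFAT factor of T cells, had it 69.4 kb into the gene (2.11 and 2.52). Its locus held 3 regions in each stimulated list, against 1 in unstimulated phenelzine and 4 in unstimulated untreated cells, so the region count did not move one way. Rcan1, a calcineurin inhibitor and NFAT target, had one 22.3 kb into the gene (2.28 and 2.02). The member near Nfatc3 lay 19.7 kb beyond the gene, over the promoter window of Pla2g15 (4.88 and 2.52).

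In the NF-kB list 4 of 18 genes had members (22.2%, against 5.55% of all protein-coding genes). Nfkbie encodes an inhibitor that holds NF-kB in the cytoplasm and had members on chromosome 17 at 45563833 to 45563976 and at 45573273 to 45573405. The first lay 0.664 kb beyond the last base of the gene, over the promoter window of Slc35b2, with −log10 q 1.99 in stimulated phenelzine and 4.25 in stimulated untreated cells. The second lay 10.1 kb beyond it (2.04 and 4.36), with an unstimulated phenelzine peak 482 bp away. Its promoter was not a member, since the unstimulated untreated list had a peak there too. Bcl3, an atypical inhibitor that acts in the nucleus, had a member centred at −1502 bp from its first base (2.76 and 3.59). Traf1 and Traf2 encode adaptors of tumour necrosis factor receptors. Traf1 had one at −1905 bp (1.41 and 3.26), and Traf2 one 10.8 kb outside the gene, over the promoter window of Edf1 (3.23 and 1.57).

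In the list of 25 AP-1 and immediate early genes, 2 had a member (8.0%, near the 5.55% of all protein-coding genes). These were Nr4a2 and Nr4a3, both at the promoter. The Nr4a3 region, chromosome 4 from 48045015 to 48045129, spanned the first annotated base of the gene and had −log10 q 2.58 in stimulated phenelzine and 6.51 in stimulated untreated cells. The nearest unstimulated phenelzine peak was 1509 bp away, and the nearest in unstimulated untreated cells was 234499 bp away. The Nr4a2 region had 2.68 and 2.27. None of the AP-1 subunit genes Fos, Fosb, Fosl1, Fosl2, Jun, Junb, Jund, Batf and Batf3 had a member, and Batf and Batf3 had no region at all. The list's loci held 36 and 50 regions in the stimulated phenelzine and stimulated untreated lists, against 33 and 34 in the unstimulated phenelzine and unstimulated untreated lists. Summed over the loci of all protein-coding genes, the counts were 15824 and 17526, against 14029 and 12016. The list's counts are thus near background and are no result about these genes.

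Effector transcription factors had members at 2 of 13 genes. Prdm1, the gene of the effector regulator Blimp-1, had its only region in any list at −1000 bp from its first base, with −log10 q 1.46 in stimulated phenelzine and 6.82 in stimulated untreated cells. From the nearest Prdm1 start site with a promoter window, this region lay at −70810 bp. It was thus over no Prdm1 promoter window used here. The nearest unstimulated peak was 148567 bp away. Zeb2, another effector factor gene, had a member 14.0 kb beyond its end (1.61 and 1.35). No member lay in the loci of the 16 cytokine and chemokine genes, the 12 cytotoxic granule genes, the 12 activation receptors or the 12 inhibitory receptor and exhaustion genes. The same held for the 14 naive and quiescence genes, the 15 identity genes and the 14 genes of LSD1 complexes and monoamine oxidases. At a background of 5.55% of genes a count of 0 in lists this short is not a result about them. Many had no region of any kind, among them 7 of the cytokine and chemokine genes, 8 of the cytotoxic granule genes and 7 of the activation receptors. Housekeeping genes had members at 2 of 13, Polr2a (1.76 and 2.204), 385 bp into the gene, and Actb (1.45 and 4.01), 12.9 kb away. From the Polr2a member an unstimulated phenelzine peak was 277 bp away and an unstimulated untreated peak 410 bp away.

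Markers of other cell types had members at Csf3r, a neutrophil receptor gene (1.94 and 1.81), and Prrx1, a stromal factor gene (1.87 and 1.53). These were 1 of 6 myeloid and 1 of 5 stromal and endothelial genes, while none of 5 B cell, 3 CD4 and regulatory T cell, 2 NK cell and 4 epithelial genes had one. Loci of the myeloid list held 4, 3, 2 and 3 regions in stimulated phenelzine, stimulated untreated, unstimulated phenelzine and unstimulated untreated cells, and those of the stromal list 4, 2, 2 and 0. Summed over all protein-coding genes the counts were 15824, 17526, 14029 and 12016 in the same order. Itgam, Csf1r, Adgre1, Col1a1, Col1a2 and Pdgfrb had no region in any list. Whether other cells contributed to the members was not tested.

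**Figure D4:**
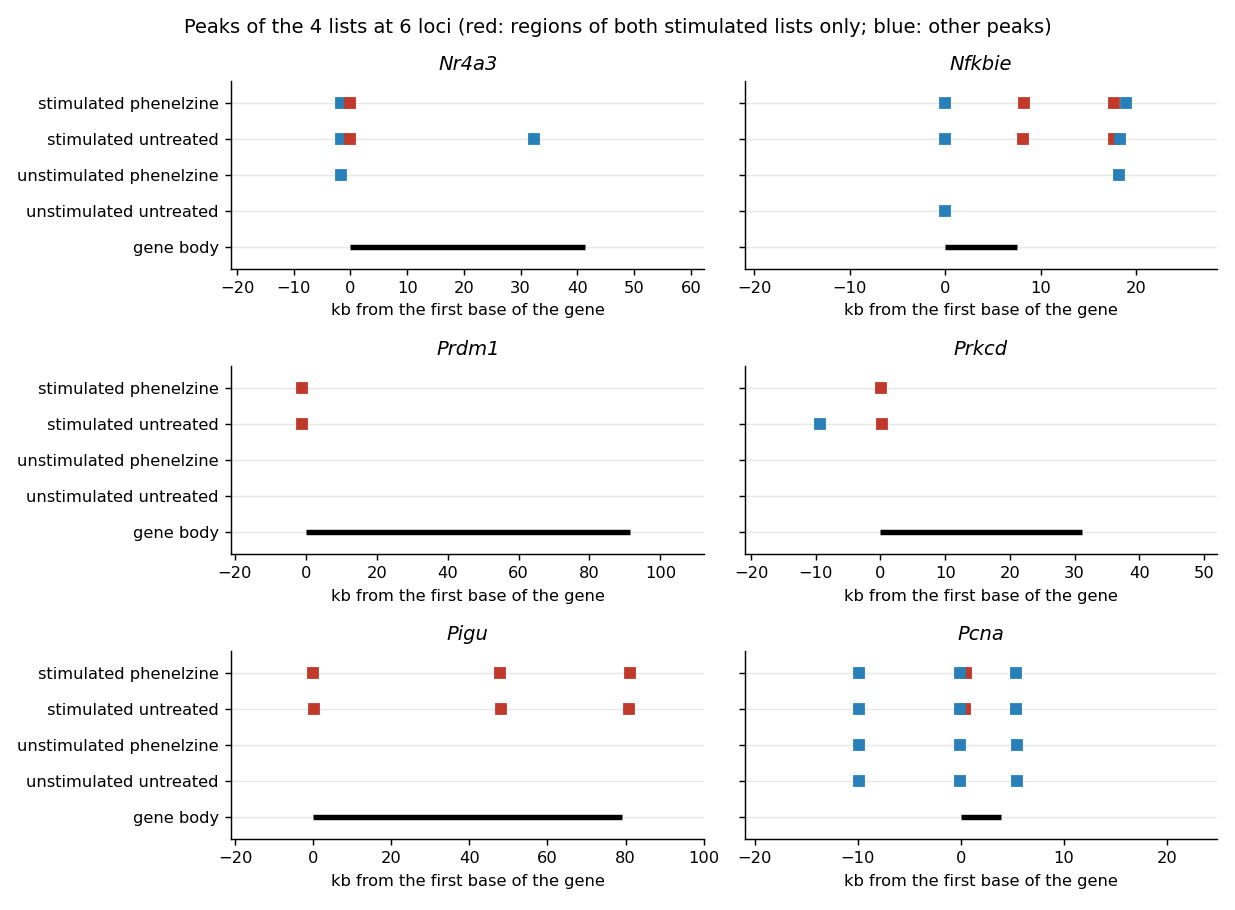
Squares of fixed size mark the positions of peaks in each list along 6 genes with 20 kb on either side, as kb from the first base of the gene, with the gene body as a black bar. Red squares belong to regions of both stimulated lists only. At Prdm1 and Pigu these are the only peaks, at Prkcd the stimulated untreated list has another, and at Nfkbie and Pcna the peak at the first base is also in unstimulated cells.

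The share of genes with a member was higher among list genes than among all genes, and so was that of every other region pair. Leaving out the markers of other cells, 20 of 198 list genes (10.1%, 6.28 to 15.2) had a member, against 5.55% of all protein-coding genes. For regions of both phenelzine lists only the shares were 7.07% (3.92 to 11.6) of list genes and 2.60% of all genes, and for both untreated lists only 5.05% (2.45 to 9.09) and 1.99%. For both unstimulated lists only they were 1.52% (0.314 to 4.36) and 0.929%, and the interval holds the share of all genes. They were 5.05% (2.45 to 9.09) and 3.71% for stimulated untreated with unstimulated phenelzine, where the interval again holds the share of all genes, and 3.54% (1.43 to 7.15) and 1.40% for stimulated phenelzine with unstimulated untreated. List genes also had a region of any kind more often, 72.7% against 58.1%. The lists were chosen with earlier results of these data known, so their counts are no independent evidence.

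The strongest members did not come from these lists. The highest pair of −log10 q, 20.5 in stimulated phenelzine and 9.48 in stimulated untreated cells, was at chromosome 9 from 3022136 to 3022222, 313009 bp from the nearest gene Alkbh8. There 14 regions lay within 100 kb, an unstimulated peak was 1249 bp away, and the folds were only 6.0 and 4.88. Pcna, the sliding clamp of DNA replication, followed with 7.16 and 6.90 at chromosome 2 from 132252683 to 132252798. That region lay 440 bp after the start site, beside a promoter peak that all 4 lists held 375 to 390 bp away in the unstimulated lists. C1d, an exosome cofactor gene, had 6.44 and 5.88 at its promoter, with no unstimulated peak closer than 45845 bp.

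Other strong members at promoters belonged to genes of varied function. Slc39a1, a zinc importer gene, had 5.66 and 5.62. Mprip, which encodes a partner of myosin phosphatase, had 10.9 in stimulated phenelzine and 5.24 in stimulated untreated cells, with the nearest unstimulated peak 176859 bp away. Jarid2, a subunit gene of the Polycomb repressive complex, had 4.94 and 5.16, with an unstimulated phenelzine peak 477 bp away. Lsm5, of the ring that binds U6 RNA, had 4.86 and 4.58, and Slc22a5, the carnitine transporter gene, 4.56 and 5.91. At Plekha8, which shares its gene end with Fkbp14, the values were 4.50 and 5.47. The remaining gene-end members of the top 15 were Arl2bp (4.36 and 4.62) and the prefoldin-like chaperone gene Uxt (4.99 and 4.21), with an unstimulated phenelzine peak 296 bp away. Away from gene ends were regions 12652 bp from Tmem121 (6.72 and 5.25), 1529 bp from Gm4832 (4.87 and 6.64), inside Epn2 (4.56 and 4.70) and 6102 bp from Prss16 (6.89 and 4.49). Of these 15 regions 10 lay at gene ends.

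Several members at a locus were uncommon. A single member lay at 1142 genes, 2 at 57 and 3 at 2. Pigu, a subunit gene of the enzyme that attaches GPI anchors, had 3 members and no other region. They lay at its first base (2.46 and 4.83), inside it (3.40 and 3.99) and just beyond its end (1.57 and 1.70), in stimulated phenelzine and stimulated untreated cells. Tes, which encodes a focal adhesion protein, had 3 within 54.5 kb (3.46 and 1.57, 3.68 and 2.04, 2.26 and 2.00). Among the loci with 2 were Fgd2, a Cdc42 exchange factor gene, with 3.83 and 3.90, and 4.92 and 2.11. Irak2, a kinase gene of interleukin-1 and Toll-like receptor signalling, had 1.41 and 2.50, and 3.40 and 3.98. The Irak2 locus held 5 and 6 regions in the stimulated phenelzine and stimulated untreated lists, against 2 and 1 in the unstimulated phenelzine and unstimulated untreated lists. By rule a member adds to both stimulated counts and to neither unstimulated count. Of the 1201 genes with a member, 945 had more regions in the stimulated list in both arms and 0 had fewer in both. Znrf3, which encodes a ligase that removes Wnt receptors, had 3.50 and 8.0, and 2.17 and 1.80, with no unstimulated region. Jarid2, Zfp608, St3gal4, Ttll12 and Creb3l1 also had 2 each.

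Transfer RNA genes were a further class under the regions. Of 408 such genes, 9 were overlapped by at least 1 bp by 8 members (0.893% of members, 0.386 to 1.75), several of them only in part. The share was 0.636% (0.416 to 0.931) for regions of all 4 lists and 0.512% (0.405 to 0.638) for all regions, so the intervals overlap. The strongest overlapped a part of n-TVaac3, a valine tRNA gene on chromosome 13 (6.89 and 4.49), and a part of n-TEctc13, a glutamate tRNA gene on chromosome 3 (4.78 and 3.92). Since tRNA genes have near-identical copies and the mapping filter is not given in the sources used here, reads may belong to another copy. No miRNA hairpin was overlapped by a member.

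The 5 widest members measured between 572 and 604 bp and lay 72639 bp from Spata18, inside Rnf141, 42616 bp from Bhlhe40, inside Msantd2 and over its promoter window, and 75103 bp from Gm46353. Their −log10 q was between 1.24 and 2.65 in stimulated phenelzine and between 1.64 and 2.07 in stimulated untreated cells. Over all members the lower and upper quartiles of width were 127 and 237 bp.

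The promoters under the regions were CpG-rich, as were those under regions of all 4 lists. The 340 touched windows, of 314 genes (1.82% of the 17274 genes with a window), had a median GC content of 62.0% and 23 CpG dinucleotides. Windows touched by regions of all 4 lists had 62.7% and 24, and all windows 56.7% and 13. The Ets motif CCGGAA, bound by a factor family that drives many housekeeping promoters, was in 38.5% (33.3 to 43.9) of windows under both stimulated lists only. It was in 39.5% (37.9 to 41.1) under all 4 lists and in 18.9% of all windows. The YY1 motif AAGATGGC was in 9.12% (6.28 to 12.7), 6.22% (5.44 to 7.07) and 3.07% in the same order.

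Motifs of the factors that PMA and ionomycin activate were not more frequent than in all promoters by their intervals. The AP-1 motif TGANTCA was in 3.82% (2.05 to 6.45) of the windows under both stimulated lists only, in 3.71% (3.11 to 4.40) under all 4 lists and in 7.04% of all windows. Within the region itself it occurred at Bag3, Creb5, Mdm4, Zfp36l1, Rtel1, Lmna and Slc38a7. The NF-kB motif was in 6.76% (4.34 to 9.98), 5.73% and 5.03%. The NFAT motif TGGAAA was in 19.7% (15.6 to 24.3), 13.7% (12.6 to 14.9) and 19.5%, so the interval for both stimulated lists only lay above that for all 4 lists and held the value of all windows. Other pairs had such shares too, with 24.8% (18.03 to 32.7) for both phenelzine lists only and 18.5% (9.25 to 31.4) for both unstimulated lists only. Both untreated lists only had 13.0% (7.11 to 21.2), and the mixed pairs had 14.2% (9.73 to 19.8) for stimulated untreated with unstimulated phenelzine and 13.7% (6.77 to 23.8) for stimulated phenelzine with unstimulated untreated. All these shares count whole windows. Under both stimulated lists only, 67 windows held the NFAT motif, and in 33 of the 340 pairs of window and region it lay inside the region. For NF-kB 23 windows held the motif and 13 pairs had it inside.

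The remaining motifs are given in the same order. Runx TGTGGT was in 8.82% (6.03 to 12.4), 10.8% and 14.7% of windows, Egr GCGTGGG in 6.47% (4.10 to 9.63), 7.86% and 6.41%, and CTCF AGGGGGCG in 12.4% (9.05 to 16.3), 13.2% and 8.23%. The full CRE TGACGTCA was in 3.24% (1.63 to 5.72), 4.75% and 2.26%, and the Nr4a motif AAAGGTCA in 0.588% (0.0713 to 2.11), 0.777% and 1.32%. For NRF1 the shares were 1.76% (0.650 to 3.80), 4.69% (4.01 to 5.45) and 1.34%, so under both stimulated lists only the interval lay below that for all 4 lists. The share was as low, 1.47% (0.304 to 4.24), for stimulated untreated with unstimulated phenelzine. It was 4.14% for both phenelzine lists only, 6.0% for both untreated lists only, 5.56% for both unstimulated lists only and 4.11% for stimulated phenelzine with unstimulated untreated, each with an interval overlapping that of the stimulated pair. A match describes letters in the window and is no evidence of binding. Members away from promoters were not searched, since no genome sequence was used here.

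**Figure D5:**
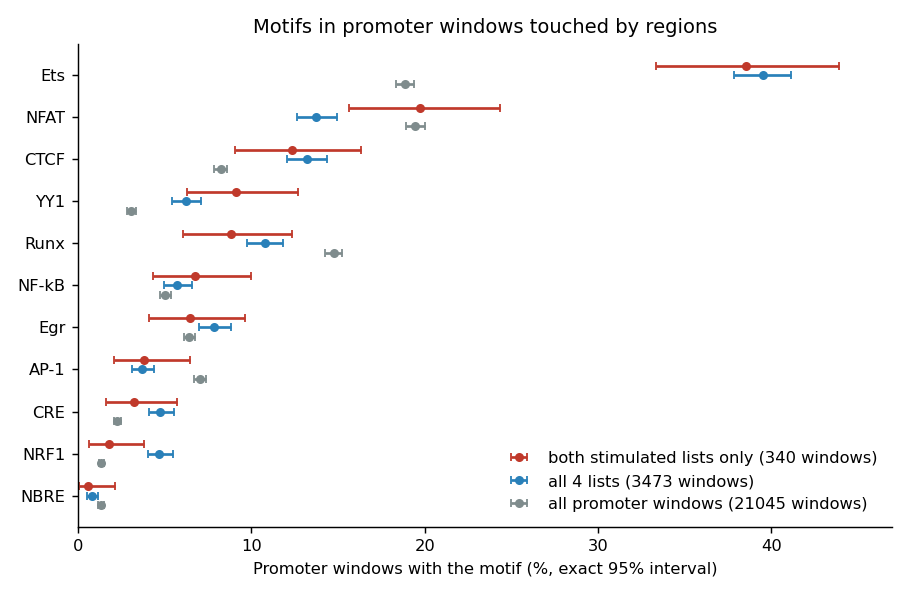
Points give the percentage of 300-base promoter windows holding each motif on either strand, with exact 95% intervals, for windows under regions of both stimulated lists only (red, 340), under regions of all 4 lists (blue, 3473) and for all protein-coding genes (grey, 21045). Red and blue lie together for Ets (38.5% and 39.5%) and AP-1 (3.82% and 3.71%) and apart for NFAT (19.7% and 13.7%) and NRF1 (1.76% and 4.69%). The other pairs of lists are not drawn, and some of them share these departures (NFAT 24.8% for both phenelzine lists only, NRF1 1.47% for stimulated untreated with unstimulated phenelzine).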

How the data were processed

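ATAC-seq peak lists of 4 libraries, 1 per condition, were used. Per the submitters' processing notes the tools were Trimmomatic 0.33, Bowtie2 2.2.5, Picard, MACS2 and HOMER with mm10; the sources used here give no parameters or filters. The authors deposited a broad peak list per library, called in each library on its own, with a score (10 times −log10 q), a fold enrichment (a ratio to local background), and −log10 p and −log10 q. These values rank peaks within a list and are not compared as levels between libraries. The peak names carry the tag less120, whose meaning is not given in the sources used here.

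Peaks on chromosomes 1 to 19 and X were merged with Python 3.11.15, pandas 2.3.3 and numpy 2.4.6, wherever they overlapped by at least 1 bp. The strongest peak of a list stood for it in a region. Coordinates count from 1. Genes and promoter windows came from RefSeq for GRCm38.p6, the assembly behind mm10, and all 223 list genes in 19 lists matched by symbol. Promoter windows of chromosome 18 were not used here. In 823 of 823 overlapping pairs of windows on opposite strands the sequences were reverse complements. Motifs were searched on both strands, with TGACG also inside every CRE. Intervals are exact (Clopper-Pearson, SciPy 1.17.1) and cover counting error only. Merging and motif search were tested on simulated data.

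The members and gene lists were chosen with earlier results of these data known. Named genes were the list genes with a member within 20 kb, the 15 members with the highest weaker −log10 q, up to 15 loci with most members, the 5 weakest, 5 nearest to an unstimulated peak and 5 widest members, and the 5 regions just outside. Genes named for tRNA or motifs were chosen after their values were seen. Some items that these rules select are not reported here. Alternatives changed the peak threshold, list sizes, merging, distance to unstimulated peaks, dense regions and windows.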

Additional observations from a re-analysis of the deposited data

Results flagged for a closer look

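At 3 of the 22 list genes with a member, the number of regions in the locus moved in opposite directions in the 2 arms, stimulated minus unstimulated. At Nfatc2 it was 2 in the phenelzine arm (3 against 1) and −1 in the untreated arm (3 against 4). At Zeb2 it was −2 (1 against 3) and 2 (3 against 1). At Csf3r it was 1 (2 against 1) and −1 (1 against 2). With 1 library per condition these differences were not tested. The direction was the same in both arms at 15 genes and at least 1 arm had no difference at 4, which the shared member favours by rule.

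Chromosome Y was outside the comparisons. Of its 11 regions 2 had a peak in both stimulated lists and in neither unstimulated list.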

How the results depend on the processing

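No paired analysis was possible because each condition had 1 library and no result comes from a test. The choice of peak threshold changed the set most. With −log10 q of at least 3 the number of regions was 459, of which 88 were members before and 371 were held by an unstimulated list through a weaker peak. Their gene-end share was 69.7%, they made up 27.3% of the gains of the phenelzine arm, and 8 list genes had one in the locus. Only 1 of these genes, Prkch, also had a member before, and it was a different region. With lists of equal size, 6519 peaks each, the number was 332, of which 272 were members before. The gene-end share was then 55.7%, the shares of gains were 15.5% in the phenelzine arm and 15.6% in the untreated arm, and 563 protein-coding genes and 5 list genes (Bcl3, Nfatc2, Nfatc3, Nfkbie and Nr4a3) had one. Merging only at 50 bp of overlap gave 21.4% of phenelzine-arm gains and 15.8% of untreated gains. Gene-end windows of 2 kb gave a share of 43.0%. Loci with flanks of 50 kb gave 2006 protein-coding genes, and gene bodies alone gave 580 and 10 list genes. Of 43 alternative values 27 stayed within 1.5 times the count or inside the interval of the share, among them those for peaks merged up to 100 bp apart, for no unstimulated peak within 1 kb and without regions in dense stretches. The start-site share was added after seeing the data. The planned AP-1 search over whole regions was not run, since no genome sequence was used here. Unknown read depth limits every absence from a list.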

Other observations

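Gene families, grouped by symbol after the data were seen, had members at gene ends in small numbers, against 399 of 21631 protein-coding genes (1.84%). Zinc-finger genes with the prefix Zfp had 15 of 397 (3.78%), among them Zfp36 and Zfp36l1, whose products bind AU-rich elements of messenger RNAs. Solute carriers had 10 of 375 (2.67%), including the carnitine and zinc transporter genes named above and the lactate transporter gene Slc16a1. Cytosolic ribosomal protein genes had 2 of 80 (Rpl18 and Rps15a), mitochondrial ribosomal protein genes 2 of 78, respiratory chain and ATP synthase genes 3 of 93, proteasome subunits 3 of 51 and initiation factors 2 of 55. Histone genes had 0 of 67, and 48 of them had a region at a gene end. At a background of 1.84% of genes, a count of 0 among so few histone genes is not a result about them. Olfactory receptors had 0 of 1110, of which 2 had any region there. Among genes with any region at an end the share with a member was 5.29% among all such genes, 8.67% for Zfp genes and 2.90% for cytosolic ribosomal protein genes. These counts were not tested.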
